A study of Mus musculus with 8 samples.

Results

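Collagens are the chains that build the fibres, sheets and anchoring threads of the vessel wall, and their genes were followed in the ascending aorta of mice with mucopolysaccharidosis VII (MPS VII), in which the lysosomal enzyme beta-glucuronidase is missing. Members were all genes whose array annotation reads Col, a number, a, and a number, with nothing more. That rule found 37 collagen chain genes with 57 probes, among 16110 named genes with 23141 probes. RNA came from 3 groups of C57BL/6 mice, with 1 array for each mouse. The MPS VII dilated group held 3 mice of 7.8, 9.1 and 6 months with a widened ascending aorta, 2 of them female and 1 male. The MPS VII not dilated group held 2 mice of 5.8 and 6.7 months, 1 female and 1 male, and the normal group held 3 mice of 5.8, 6.4 and 7 months, 2 female and 1 male. The labels name the genotype only as MPS VII or normal and give no treatment for any group, and since the whole animal lacks the enzyme, the groups do not separate the vessel wall from the rest of the body. The dilated mice include the oldest animals of the series, so the spread of age is not the same in each group.

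Collagen chains wind around each other in sets of 3 to form the molecule. The fibrillar types I, III and V make the load-bearing fibres of the adventitia and media, and type IV makes the sheet of the basement membrane that surrounds each smooth muscle cell and underlies the endothelium. Types XV and XVIII sit at the border between basement membrane and matrix, types XIV and XVI lie on or near fibrils, and type VI makes beaded filaments around cells. A type I molecule usually joins Col1a1 and Col1a2 chains, and the common type IV molecule joins Col4a1 and Col4a2 chains, so the members can be read as partners as well as 1 by 1.

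Values are deposited intensities on a linear scale, and values past 25.6 intensity units were taken as above background. The array medians lay between 17.75 and 17.99 intensity units, and between 45.0% and 45.2% of the probes of each array were above background. Gusb, the gene of beta-glucuronidase, had 190, 218 and 184 intensity units in the dilated aortas and 112 and 125 in the not dilated ones, against 1094, 992 and 1172 in the normal aortas. Each MPS VII array was therefore below each normal array for the gene that defines the disease. As a check of the labelled tissue, all 9 contractile smooth muscle genes on the array were above background. These are bulk samples, so fewer cells of a type and less RNA per cell cannot be told apart, and because the arrays share 1 common distribution a change in total RNA cannot be seen.

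Of the 37 collagen chain genes, 19 passed the background bound on 2 or more arrays and were tested, and 16 of these passed it on all 8. The basement membrane types were covered in full (8 of 8 genes, Col4a1 to Col4a6, Col15a1 and Col18a1). Of 11 fibrillar genes, 6 passed (Col1a1, Col1a2, Col2a1, Col3a1, Col5a1 and Col27a1), and of 6 fibril-associated genes 2 passed (Col14a1 and Col16a1). Of 10 genes of the other types 3 passed (Col6a1, Col6a2 and Col23a1), and of the 2 network-forming genes 0 did. The other 18 genes had 29 probes with no value above 36.6 intensity units, and 13 of them never passed the background bound. They were Col5a2, Col5a3, Col11a1, Col11a2 and Col24a1 among the fibrillar genes and the network genes Col8a2 and Col10a1. They also included Col9a1, Col9a2, Col9a3 and Col19a1, which lie on fibrils, and the remaining types Col6a6, Col7a1, Col13a1, Col17a1, Col25a1, Col26a1 and Col28a1. Col5a2 is the usual partner of Col5a1, so the type V pair could be followed through Col5a1 alone.

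Differences were taken on log2 of the intensity plus 50 and tested with limma, and a gene was called at a Benjamini-Hochberg adjusted p under 0.05 over all 10040 genes and unnamed probes. In dilated minus normal aorta, 1 collagen gene was called higher and 1 lower among 19, and 17 were not called. Over all genes tested, 9.82% were called higher and 10.4% lower. These are 986 higher and 1046 lower genes, or 1167 and 781 after a further cyclic loess normalization. The log2 difference was below 0 for 15 of the 19 genes, with a median of -0.27 against -0.05 over all genes tested. The share of all genes below 0 was not counted, and their median was 0.015 after the cyclic loess. The MPS VII dilated arrays lay wholly above the normal arrays for 1 collagen gene (17.9% of all genes tested) and wholly below them for 7 (24.6%). The single differences ranged from -1.04 to 1.24. The 3 genes that passed the background bound on only some arrays, Col2a1, Col4a3 and Col27a1, had differences of -0.03, 0.11 and -0.25 and none was called.

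**Figure D1:**
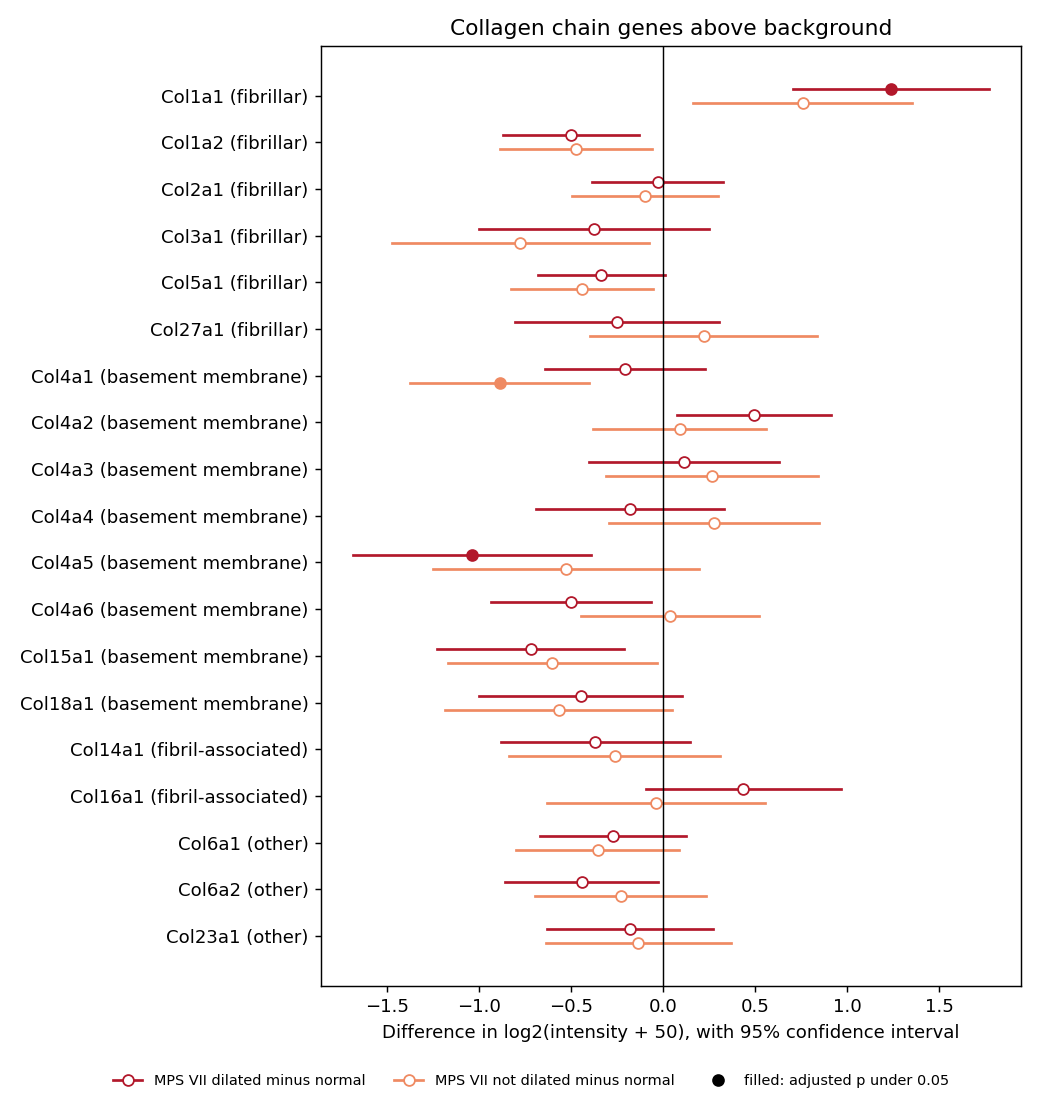
Log2 differences of the 19 collagen chain genes above background, with 95% confidence intervals from limma, for MPS VII dilated minus normal (dark red) and MPS VII not dilated minus normal (orange). Filled points passed the adjusted p of 0.05. Col1a1 at 1.24 and Col4a5 at -1.04 are the filled points of the dilated comparison, and Col4a1 at -0.89 is the filled point of the other.

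Among the fibrillar chains, Col1a1 was called higher, and the 5 other measured genes had log2 differences between -0.50 and -0.03. Col1a1, the major chain of type I collagen, had 1233, 935 and 1586 intensity units in the dilated aortas and 666 and 1117 in the not dilated ones, against 412, 576 and 497 in the normal aortas. Each of the 5 MPS VII aortas was above each normal aorta, and the not dilated aortas overlapped the dilated ones. The dilated mean was 1251 ± 326 and the normal mean 495 ± 81.9 (SD, n = 3 each). The log2 difference was 1.24, a fold of 2.36 on the offset scale (SE 0.24, 95% confidence interval 0.70 to 1.77, limma adjusted p = 0.0086). The call held under 18 of 19 alternatives, with the exception given below for the adipocyte markers.

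Col1a2, the partner chain of type I, did not follow it. Its probe had 181, 186 and 187 intensity units in the dilated aortas and 147 and 240 in the not dilated ones, against 239, 296 and 318 in the normal aortas. The dilated arrays lay within a narrow band below all normal arrays, while not dilated replicate 2 reached just above the lowest normal value. The log2 difference of dilated minus normal was -0.50 (SE 0.16, limma adjusted p = 0.0587), which missed the threshold.

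Col3a1, the chain of type III collagen, which mixes with type I in distensible tissue, overlapped between groups. Its brightest probe had 170, 112 and 173 intensity units in the dilated aortas and 54.6 and 168 in the not dilated ones, against 187, 171 and 281 in the normal aortas. Not dilated replicate 1 stood lowest by a wide margin, and the dilated arrays overlapped the normal ones. The log2 difference was -0.38 in dilated minus normal (SE 0.28, limma adjusted p = 0.347). A further probe of Col3a1 had a difference of 0.20 in the same comparison, so the sign of this gene depends on the probe.

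Col5a1, the type V chain that sits in the core of type I fibrils and helps to set their width, had 3031, 2826 and 2877 intensity units in the dilated aortas and 2202 and 3327 in the not dilated ones, against 3733, 3674 and 3668 in the normal aortas. All 5 MPS VII aortas were below all 3 normal aortas, and the normal values lay close together (3692 ± 36.2, SD, n = 3). The log2 difference of dilated minus normal was -0.34 (SE 0.15, limma adjusted p = 0.145) and was not called. Col2a1, the cartilage chain, was above background on 4 arrays and had 19.2 to 49.6 intensity units in the dilated aortas, 23.7 and 27.7 in the not dilated ones and 23.6 to 36.0 in the normal aortas. Col27a1, a fibrillar chain of developing cartilage, was above it on 7 arrays and differed by -0.25 in dilated minus normal (limma adjusted p = 0.479).

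**Figure D2:**
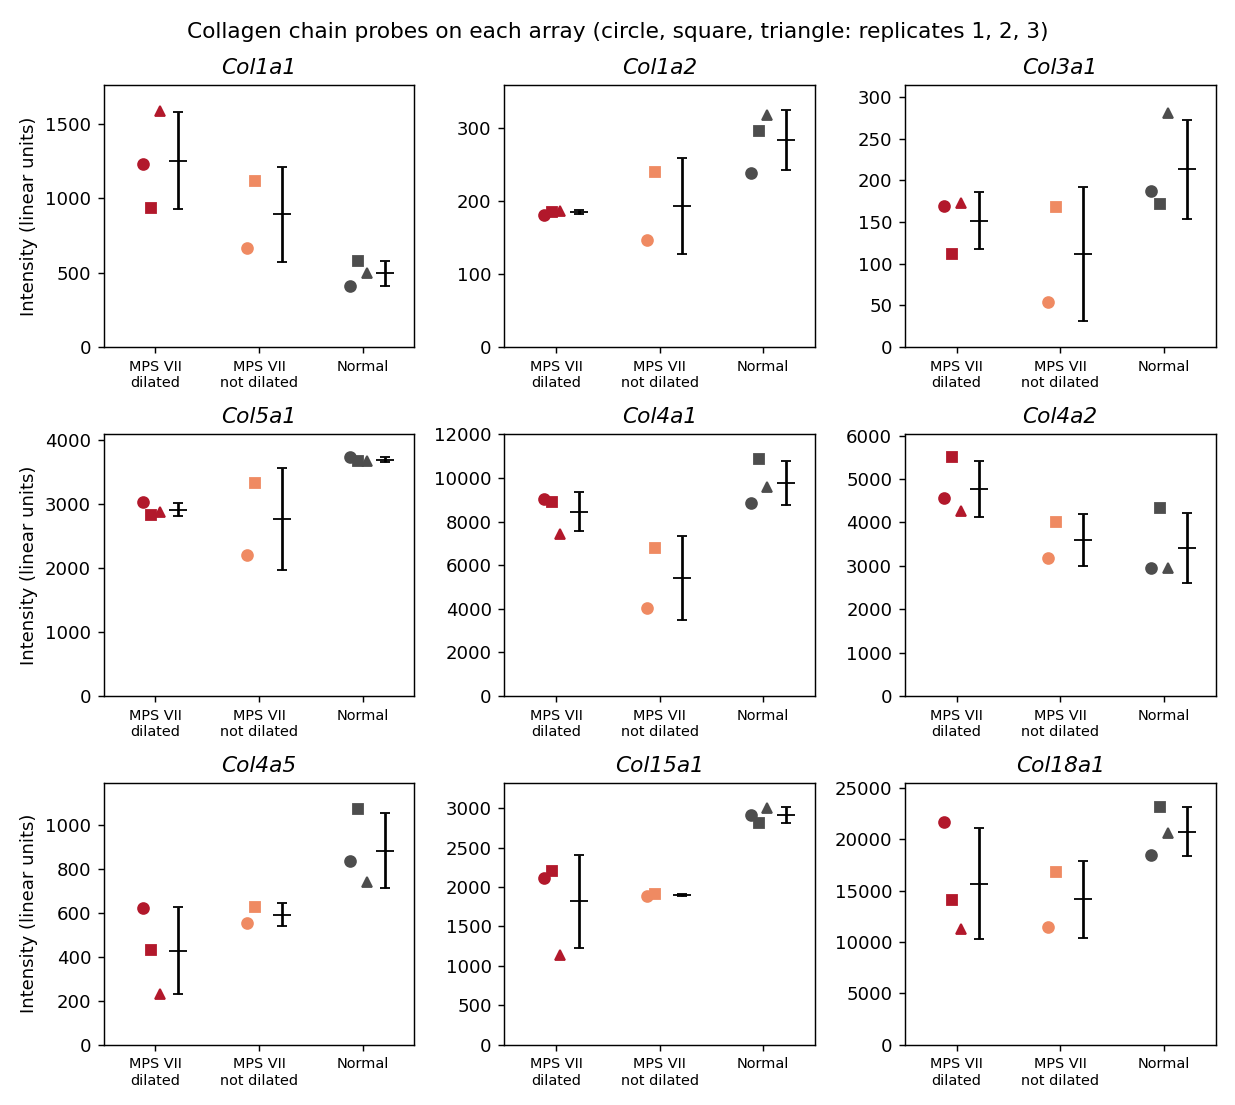
Deposited intensity of 9 collagen chain genes on each array, on linear axes from 0, with MPS VII dilated at the left, MPS VII not dilated in the middle and normal at the right of each panel. Circles, squares and triangles are replicates 1, 2 and 3, and the black marks give mean and SD. For Col1a1 the 5 MPS VII arrays sit at 666 to 1586, above the normal arrays at 412 to 576, and for Col15a1 they sit at 1136 to 2198, below the normal arrays at 2806 to 3005.

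Among the basement membrane chains, Col4a5 was called lower in dilated aorta, Col4a6 and Col15a1 lay wholly below the normal arrays without being called, and Col4a2 had a difference above 0. Col4a5, a type IV chain that joins Col4a6 in the basement membranes of smooth muscle, had 624, 433 and 229 intensity units in the dilated aortas and 556 and 629 in the not dilated ones, against 839, 1073 and 742 in the normal aortas. All MPS VII arrays were below all normal arrays, and dilated replicate 3 was the lowest of the 8. Dilated aortas averaged 429 ± 198 and normal aortas 884 ± 170 (SD, n = 3 each). The log2 difference was -1.04 (SE 0.29, 95% confidence interval -1.69 to -0.39, limma adjusted p = 0.0331). The call was lost without dilated replicate 2 (-1.09, limma adjusted p = 0.0655) or dilated replicate 3 (-0.70, 0.052), and without any 1 of the normal arrays (0.0647 to 0.0981).

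Col4a6, whose gene lies beside Col4a5, had 117, 107 and 54.4 intensity units in the dilated aortas and 158 and 149 in the not dilated ones, against 177, 150 and 121 in the normal aortas. Here the dilated arrays were the low ones, and the not dilated arrays lay within the normal range. The log2 difference was -0.50 in dilated minus normal (SE 0.19, limma adjusted p = 0.0949) and 0.04 in not dilated minus normal (SE 0.21, limma adjusted p = 0.922). The 2 further probes of Col4a6 were above background on only 5 and 6 arrays and had -0.37 and -0.39 in dilated minus normal. Their dilated values lay near or below the bound, at 28.4, 23.1 and 4.26 on the first and 15.8, 11.2 and 31.8 on the second. On the first, dilated replicate 1 was above normal replicate 3 (18.8).

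Col4a1 and Col4a2, the chains of the common type IV molecule, parted from each other. Col4a1 had 9047, 8888 and 7424 intensity units in the dilated aortas and 4040 and 6772 in the not dilated ones, against 8861, 10861 and 9588 in the normal aortas. Its low arrays were the not dilated ones, and dilated and normal arrays overlapped. Col4a2 had 4550, 5494 and 4258 intensity units in the dilated aortas and 3172 and 4014 in the not dilated ones, against 2947, 4330 and 2953 in the normal aortas. Only normal replicate 2 among the normal arrays reached the dilated range of Col4a2. In dilated minus normal the log2 difference was -0.21 for Col4a1 (SE 0.19, limma adjusted p = 0.459) and 0.49 for Col4a2 (SE 0.19, limma adjusted p = 0.0904).

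These 2 genes are transcribed away from each other from almost the same place, and so their start regions are shown. In the RefSeq table of build GRCm38.p6 the starts lie 21 bases apart on opposite strands of chromosome 8, and the 2 windows share 78 positions. A window runs from 250 bases before the start to 50 bases from it, 300 in all, and each is written along its own gene's strand. Col4a1 lies at chr8:11312777-11313076 on the minus strand and Col4a2 at chr8:11312555-11312854 on the plus strand. Capitals mark the letters CCAAT and GGGCGG on either strand, so that ATTGG and CCGCCC are the same motifs read on the other strand, and in these windows no marked motif overlapped another.
Col4a1: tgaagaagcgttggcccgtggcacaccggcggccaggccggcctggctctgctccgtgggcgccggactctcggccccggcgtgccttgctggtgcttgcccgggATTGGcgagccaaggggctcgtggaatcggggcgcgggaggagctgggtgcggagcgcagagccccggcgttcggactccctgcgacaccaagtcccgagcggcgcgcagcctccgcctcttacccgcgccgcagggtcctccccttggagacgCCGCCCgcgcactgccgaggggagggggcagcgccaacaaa
Col4a2: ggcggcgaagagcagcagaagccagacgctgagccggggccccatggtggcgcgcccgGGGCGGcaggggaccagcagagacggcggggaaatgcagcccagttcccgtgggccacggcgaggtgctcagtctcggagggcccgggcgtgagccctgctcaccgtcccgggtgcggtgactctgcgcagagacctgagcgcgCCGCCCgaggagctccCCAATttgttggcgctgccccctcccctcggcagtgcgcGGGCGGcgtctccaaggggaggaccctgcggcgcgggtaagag
The Col4a1 window held 1 CCAAT and 1 GGGCGG match, and the Col4a2 window 1 and 3. The GGGCGG match of Col4a1 is the same site as the last one of Col4a2, read on the other strand within the shared positions.

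Col4a5 and Col4a6 are likewise a divergent pair, with starts 1343 bases apart on the X chromosome and windows that do not meet. The window of Col4a5, the called member, lies at chrX:141475169-141475468 on the plus strand, with the same motifs in capitals.
Col4a5: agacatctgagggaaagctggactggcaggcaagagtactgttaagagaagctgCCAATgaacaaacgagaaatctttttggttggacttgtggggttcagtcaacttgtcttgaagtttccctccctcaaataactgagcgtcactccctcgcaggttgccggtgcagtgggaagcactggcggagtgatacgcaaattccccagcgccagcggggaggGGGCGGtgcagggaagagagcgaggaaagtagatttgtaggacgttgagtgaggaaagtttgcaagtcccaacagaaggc
It held 1 match of each motif. The window of Col1a2, whose difference had the opposite sign to that of Col1a1, lies at chr6:4505368-4505667 on the plus strand.
Col1a2: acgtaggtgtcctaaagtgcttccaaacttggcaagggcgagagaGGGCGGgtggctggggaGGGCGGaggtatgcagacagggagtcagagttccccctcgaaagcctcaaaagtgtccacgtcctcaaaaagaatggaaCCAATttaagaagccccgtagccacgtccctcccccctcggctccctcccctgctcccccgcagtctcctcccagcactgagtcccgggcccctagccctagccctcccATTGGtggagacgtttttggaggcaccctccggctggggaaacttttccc
It held 2 matches of each motif. Of the 19 measured members 15 had a window in the RefSeq table, with 17 windows in all, and Col1a1, Col2a1, Col4a3 and Col14a1 had none. On both strands CCAAT was in 6 of the 17 collagen windows (35.3%), against 37.4% of all 32851 windows. GGGCGG was in 12 (70.6%), against 35.7%, and TATAAA in 1 (5.88%), that of Col3a1, against 13.6%. The GGGCGG site that Col4a1 and Col4a2 share was counted in both of their windows. These are counts of letters, not of bound sites.

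Col15a1, a chain of the zone between basement membrane and fibrils, had 2117, 2198 and 1136 intensity units in the dilated aortas and 1887 and 1907 in the not dilated ones, against 2916, 2806 and 3005 in the normal aortas. All 5 MPS VII arrays were below all 3 normal arrays, with dilated replicate 3 far below the rest. The log2 difference of dilated minus normal was -0.72 (SE 0.22, limma adjusted p = 0.051), just outside the threshold. Of 19 alternatives 8 called it and 11 did not. Without dilated replicate 3 it was -0.42 (limma adjusted p = 0.0481), without any 1 normal array it was not called (0.0966 to 0.130), and with the adipocyte covariate described below it was -0.30 (0.707).

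Col18a1, whose end fragment is endostatin, had 21733, 14120 and 11248 intensity units in the dilated aortas and 11514 and 16826 in the not dilated ones, against 18450, 23181 and 20618 in the normal aortas. Dilated replicate 1 lay inside the normal range and the other 4 MPS VII arrays below it. The log2 difference was -0.45 in dilated minus normal (SE 0.24, limma adjusted p = 0.213). The further Col18a1 probes had -0.03 and -0.27, and on the first of these dilated replicate 1, at 728 intensity units, was above the normal range of 353 to 716. Col4a3 and Col4a4, type IV chains best known from the kidney filter and the inner ear, differed by 0.11 and -0.18 (limma adjusted p = 0.743 and 0.592). Col4a3 was above background on 5 arrays only.

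Neither fibril-associated gene was called. Col14a1, which binds to type I fibrils, had 406, 209 and 232 intensity units in the dilated aortas and 291 and 302 in the not dilated ones, against 355, 465 and 294 in the normal aortas. Col16a1, a chain found at the edge of fibrils and near cells, had 1111, 667 and 1003 in the dilated aortas and 476 and 850 in the not dilated ones, against 593, 717 and 668 in the normal aortas. Both genes overlapped between groups, with log2 differences of -0.37 for Col14a1 (limma adjusted p = 0.268) and 0.44 for Col16a1 (limma adjusted p = 0.208) in dilated minus normal.

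The type VI chains lay slightly lower and were not called. Col6a1 had 2216, 2018 and 2318 intensity units in the dilated aortas and 1713 and 2463 in the not dilated ones, against 2398, 3248 and 2374 in the normal aortas. Col6a2 had 352, 335 and 335 in the dilated aortas and 364 and 444 in the not dilated ones, against 439, 662 and 380 in the normal aortas. On these probes the 3 dilated arrays were below the 3 normal ones for both chains, and the not dilated arrays overlapped the normal ones. The log2 differences of dilated minus normal were -0.27 for Col6a1 (SE 0.18, limma adjusted p = 0.288) and -0.44 for Col6a2 (SE 0.18, limma adjusted p = 0.118). A further Col6a1 probe above background on all 8 arrays had -0.44 in dilated minus normal. On it the not dilated aortas, at 1603 and 1988 intensity units, did not overlap the normal ones, at 2496, 2594 and 2542. Col23a1, a membrane-spanning collagen, differed by -0.18 (limma adjusted p = 0.535).

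In not dilated minus normal aorta, 0 collagen genes were called higher and 1 lower, and 18 were not called, against 4.84% and 5.17% of all genes tested (486 and 519 genes, or 543 and 348 with the further cyclic loess). This comparison uses the same normal arrays as the one before. The called gene was Col4a1, at 5406 ± 1932 in the not dilated aortas (SD, n = 2) and 9770 ± 1012 in the normal ones (SD, n = 3). Its log2 difference was -0.89 (SE 0.22, 95% confidence interval -1.38 to -0.40, limma adjusted p = 0.0366). Without not dilated replicate 1 it was -0.52 (limma adjusted p = 0.213), and the call was also lost without dilated replicate 2 (0.0564) or any 1 of the normal arrays (0.0732 to 0.0965).

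Col1a1 had a log2 difference of 0.76 in not dilated minus normal, with both arrays above the normal ones (SE 0.26, limma adjusted p = 0.0947). Col3a1 had -0.78 (SE 0.31, limma adjusted p = 0.128), Col15a1 -0.60 (SE 0.25, limma adjusted p = 0.141) and Col4a5 -0.53 (SE 0.32, limma adjusted p = 0.29). The median over the 19 genes was -0.23, against -0.06 over all genes tested (0.004 after the cyclic loess). Of the 19 differences 13 were below 0, and the share of all genes below 0 was not counted. With 2 arrays in the group, 1 array could set such a value.

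The 2 not dilated aortas were unlike each other on the collagen genes. Of the 16 collagen genes above background on every array, not dilated replicate 1 had the lowest value of all 8 arrays for 6 (Col1a2, Col3a1, Col5a1, Col4a1, Col16a1 and Col6a1), and not dilated replicate 2 for 0. Dilated replicate 3 had the lowest value for 5, all of them basement membrane genes (Col4a4, Col4a5, Col4a6, Col15a1 and Col18a1). The lowest array was not counted over all genes, so these counts do not set the collagens apart. The median distance from the normal mean over the 19 genes was -0.11, -0.34 and -0.39 in the dilated aortas and -0.36 and -0.15 in the not dilated ones, against -0.12, 0.12 and 0.00 in the normal aortas. Over all genes tested the same medians lay between -0.07 and 0.01.

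**Figure D3:**
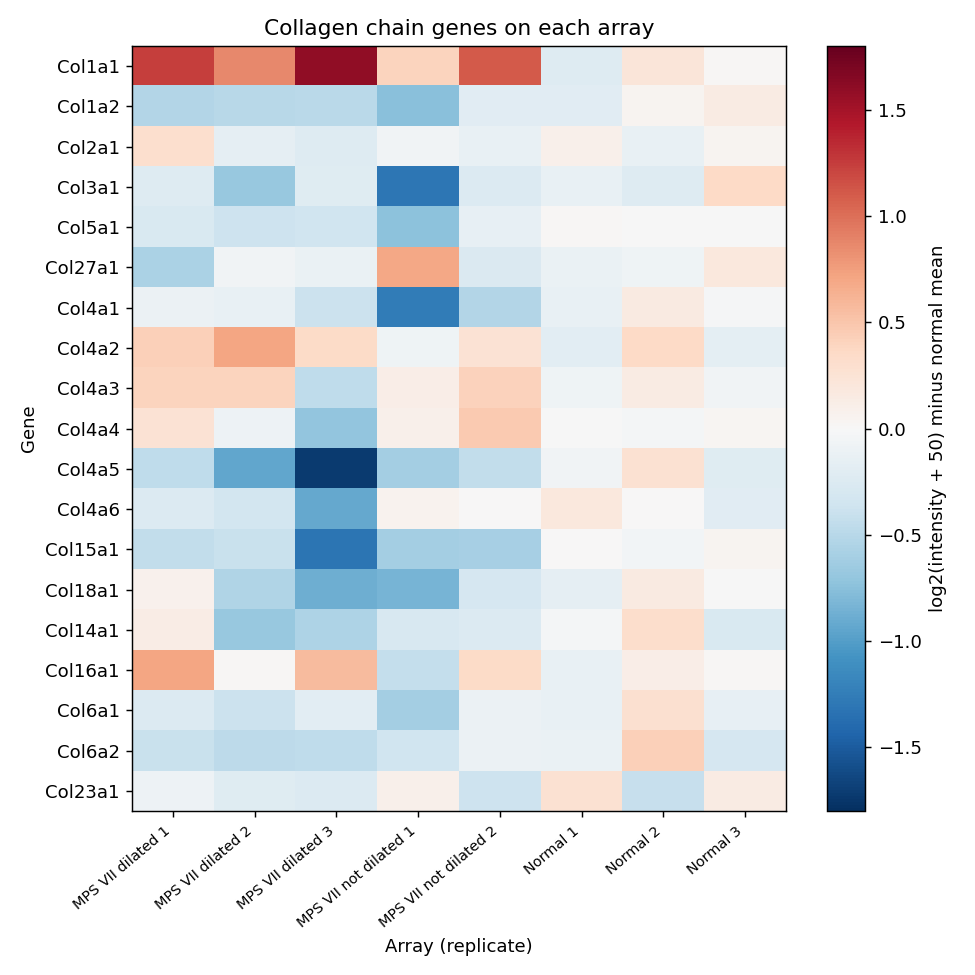
Log2 value of each of the 19 collagen chain genes on each array minus the mean of the normal arrays, with MPS VII dilated arrays at the left, MPS VII not dilated arrays next and normal arrays at the right. Red is above and blue below the normal mean. Col1a1 is red on all 5 MPS VII arrays, dilated replicate 3 is darkest at Col4a5 and Col15a1, and not dilated replicate 1 is darkest at Col3a1 and Col4a1.

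Dilated minus not dilated aorta asks what goes with widening among MPS VII mice. No collagen gene was called, against 0% of all genes tested, as limma called 0 of 10040 genes (19 with sex as a covariate and at most 4 under each other alternative, with 0 collagens in all of them). At an unadjusted p under 0.05 there were 910 genes, of which 2 were collagens, Col4a1 and Col4a6. Col4a1 had a log2 difference of 0.68 (SE 0.22, limma adjusted p = 0.414) and was higher in all 3 dilated aortas than in both not dilated ones. It was 0.31 without not dilated replicate 1 and 1.05 without not dilated replicate 2. Col4a6 had -0.54 (SE 0.21, limma adjusted p = 0.508) and was lower in all 3. Col1a1 differed by 0.48, with a 95% confidence interval of -0.12 to 1.07 that takes in both no difference and a difference as large as the one between not dilated and normal aorta. The number of arrays limits what this comparison can show.

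With both MPS VII groups set against normal aorta, 1 collagen gene was called higher and 3 lower, against 11.1% and 13.3% of all genes tested (1115 and 1331 genes, or 1301 and 913 with the further cyclic loess). The 5 MPS VII arrays lay wholly above the 3 normal arrays for 1 collagen gene (12.5% of all genes tested), Col1a1, and wholly below them for 3 (19.6%), Col5a1, Col4a5 and Col15a1. Col1a1 was higher by 1.00 on the log2 scale (SE 0.21, limma adjusted p = 0.0123, and 0.0532 without normal replicate 1). Col1a2 was called lower at -0.49 (SE 0.15, limma adjusted p = 0.0416), Col4a1 at -0.55 (SE 0.17, limma adjusted p = 0.0482) and Col15a1 at -0.66 (SE 0.20, limma adjusted p = 0.0431). The 3 lower calls sat close to the threshold and were lost with cyclic loess (limma adjusted p of 0.0713, 0.0636 and 0.0674). They were also lost without not dilated replicate 1 (-0.35, -0.36 and -0.66) or any 1 normal array, those of Col1a2 and Col4a1 without any 1 dilated array, and that of Col15a1 without not dilated replicate 2. Col4a5 had -0.78 (limma adjusted p = 0.0546) and Col5a1 -0.39 (limma adjusted p = 0.0684), just outside it.

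The partner chains were compared within each array, as the log2 value of 1 chain minus that of the other, which asks whether both chains changed alike. Of 4 planned pairs 3 could be tested, since Col5a2 was not above background. Col1a1 minus Col1a2 was 2.47, 2.06 and 2.79 in the dilated aortas and 1.86 and 2.01 in the not dilated ones, against 0.68, 0.86 and 0.57 in the normal aortas. Every MPS VII array was above every normal array. The MPS VII mean was 2.24 ± 0.38 (SD, n = 5) and the normal mean 0.70 ± 0.15 (SD, n = 3), a difference of 1.54 (two-sided exact permutation p = 0.0179, adjusted p = 0.0268 over 3 pairs).

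Col4a1 minus Col4a2 was 0.98, 0.69 and 0.79 in the dilated aortas and 0.34 and 0.75 in the not dilated ones, against 1.57, 1.32 and 1.68 in the normal aortas. All MPS VII arrays lay below all normal arrays. The MPS VII mean was 0.71 ± 0.23 (SD, n = 5) and the normal mean 1.52 ± 0.19 (SD, n = 3), a difference of -0.81 (two-sided exact permutation p = 0.0179, adjusted p = 0.0268). Col6a1 minus Col6a2 averaged 2.40 ± 0.20 in MPS VII aorta and 2.34 ± 0.14 in normal aorta (SD, n = 5 and n = 3), a difference of 0.05 (two-sided exact permutation p = 0.714). A p of 0.0179 is the smallest that 5 arrays against 3 can give. Without any 1 normal array the smallest possible p is 0.0476 before adjustment. Adjusted over 3 pairs it stays under 0.05 only if all 3 pairs reach it. Of the 8 tests that leave out 1 array, the type I and type IV calls were each lost in 3. An unequal change shows that the 2 probes moved apart, not which chain moved or that the protein did.

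**Figure D4:**
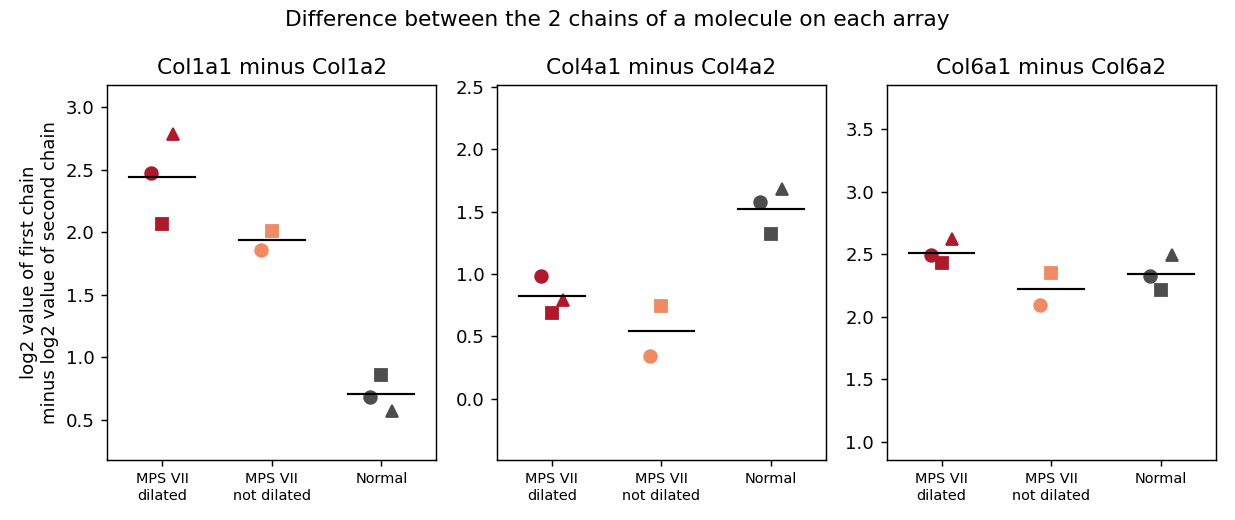
Log2 value of the first chain minus that of the second on each array for 3 pairs of partner chains, with axes of equal length, MPS VII dilated at the left, MPS VII not dilated in the middle and normal at the right. Lines are group means, and circles, squares and triangles are replicates 1, 2 and 3. The MPS VII arrays stand above the normal ones for type I (1.86 to 2.79 against 0.57 to 0.86), below them for type IV (0.34 to 0.98 against 1.32 to 1.68) and among them for type VI.

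The chains depend on a wider set of genes that make, bind and cut collagen. Of the lists for maturation, receptors, fibril partners and degradation, 50 genes were measured and 20 were called in dilated minus normal, 13 higher and 7 lower, against the 9.82% and 10.4% of all genes given above. In not dilated minus normal 8 were called, 2 higher and 6 lower, against 4.84% and 5.17% of all genes. The lists were chosen with results of these arrays known, so the counts describe them and support nothing further. All 8 calls in not dilated aorta were lost without not dilated replicate 1. That fit leaves 1 array in the group, and the calls over all genes fell in it as well. Of the 8 fits that leave out 1 array, Itga1 lost its call in 6, Dpt in 4, and Ctsk and Bmp1 in 3. Ddr2 and Tnxb lost it in 2, and Pcolce2 and Timp4 in 1.

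Maturation covers the enzymes and chaperones that modify, fold, carry and cut procollagen and link the fibres. Of 31 listed genes 21 were measured, and in dilated minus normal 2 were called higher, 2 lower and 17 neither. Of all genes 9.82% were called higher and 10.4% lower there, so the list lay near the share of all genes. Lox, which starts the cross-linking of collagen and elastin, had 4306, 2301 and 3167 intensity units in the dilated aortas and 1468 and 1598 in the not dilated ones, against 1276, 1604 and 1101 in the normal aortas. All dilated aortas were above all others, and the not dilated ones overlapped the normal ones (dilated minus normal 1.24, SE 0.22, limma adjusted p = 0.0071). Loxl2, a related cross-linker with values near background in normal aorta, rose by 0.64 in dilated aorta (limma adjusted p = 0.013, and 0.0531 without normal replicate 1).

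Pcolce2, an enhancer of the protease that trims procollagen, had 285, 267 and 314 intensity units in the dilated aortas and 312 and 459 in the not dilated ones, against 830, 1034 and 1033 in the normal aortas. All MPS VII arrays were below all normal ones, with differences of -1.58 in dilated minus normal (SE 0.16, limma adjusted p = 0.00064) and -1.24 in not dilated minus normal (SE 0.18, limma adjusted p = 0.01). With the mean over its probes, Pcolce2 had -0.54 in not dilated minus normal and was not called (limma adjusted p = 0.0740). Mia3, which loads collagen for export from the endoplasmic reticulum, fell by 0.38 in dilated aorta (limma adjusted p = 0.0429), a call lost without any 1 of the 8 arrays (0.0537 to 0.129). Bmp1, the protease that Pcolce2 assists, fell by 0.90 in not dilated aorta (SE 0.17, limma adjusted p = 0.0181) and was not called in dilated aorta (-0.25, limma adjusted p = 0.255).

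Among the receptors, 6 of 10 listed genes were measured. Of these, 1 was called higher and 2 lower in dilated aorta, against 9.82% and 10.4% of all genes. Itga11, a collagen-binding integrin of fibroblasts, had 1080, 870 and 643 intensity units in the dilated aortas and 340 and 462 in the not dilated ones, against 387, 306 and 492 in the normal aortas. The dilated aortas stood apart from both other groups, with a difference of 1.03 from normal (SE 0.22, limma adjusted p = 0.0133). Ddr2, a receptor kinase for fibrillar collagen, fell in dilated aorta by 1.02 (SE 0.13, limma adjusted p = 0.00152) and in not dilated aorta by 0.85 (SE 0.14, limma adjusted p = 0.0142). Itga1, an integrin chain that prefers type IV collagen, fell by 0.87 and by 0.75 in the same comparisons (limma adjusted p = 0.00751 and 0.0351). The call in not dilated aorta was lost with cyclic loess (0.0535), with values below 16 set to 16 (0.0513) and without any 1 array other than dilated replicates 1 and 3 (0.0556 to 0.135).

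Of 15 fibril partners 11 were measured, and 3 were called higher and 2 lower in dilated aorta (9.82% and 10.4% of all genes). Comp, which assists fibril formation, had 407, 370 and 1143 intensity units in the dilated aortas and 200 and 160 in the not dilated ones, against 147, 177 and 138 in the normal aortas. All dilated aortas were above all others, and dilated replicate 3 was far above the other dilated ones (1.59, SE 0.34, limma adjusted p = 0.0142, and 1.11 without dilated replicate 3). That call was lost without normal replicate 3 (limma adjusted p = 0.0550). Fmod, a small proteoglycan that binds type I fibrils, rose by 1.26 in dilated aorta (SE 0.34, limma adjusted p = 0.0293), a call lost without dilated replicate 1 (0.0778), dilated replicate 3 (0.0654), normal replicate 1 (0.101) or normal replicate 3 (0.103). Thbs2, whose absence disturbs fibril shape in mice, rose by 0.88 (limma adjusted p = 0.009). Tnxb, tenascin X, and Dpt, dermatopontin, both matrix proteins that bind collagen fibrils, fell by 1.37 and 0.80 in dilated aorta (limma adjusted p = 0.00234 and 0.0208) and by 1.23 and 0.96 in not dilated aorta (limma adjusted p = 0.0149 and 0.0284). The call of Dpt in dilated aorta was lost without dilated replicate 2 (0.0646), normal replicate 1 (0.0583) or normal replicate 3 (0.0735).

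Of the 13 degradation genes 12 were measured, and 7 were called higher and 1 lower in dilated aorta (9.82% and 10.4% of all genes). In not dilated aorta 2 were called higher and 0 lower (4.84% and 5.17% of all genes), and the difference between the counts was not tested. Mmp2, a gelatinase that also cuts type IV collagen, had 7569, 9262 and 5925 intensity units in the dilated aortas and 4397 and 5218 in the not dilated ones, against 3716, 3521 and 3606 in the normal aortas. The 3 groups did not overlap, and the difference was 1.04 in dilated minus normal (SE 0.17, limma adjusted p = 0.00448) and 0.40 in not dilated minus normal (limma adjusted p = 0.179). Mmp3 (stromelysin), Ctsk and Timp4 rose by 1.96, 1.47 and 1.38 in dilated aorta, and Ctsk, a protease that cuts the collagen helix, and Timp4, an inhibitor, also rose in not dilated aorta by 1.10 and 1.24 (limma adjusted p = 0.0156 and 0.00808). Timp1, another inhibitor, had 4529, 4941 and 26860 intensity units in the dilated aortas and 1932 and 3888 in the not dilated ones, against 1766, 1425 and 2122 in the normal aortas. Its difference of 2.24 in dilated minus normal was 1.41 without dilated replicate 3 (limma adjusted p = 0.0155), and the call was lost without any 1 normal array (0.0747 to 0.0864).

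**Figure D5:**
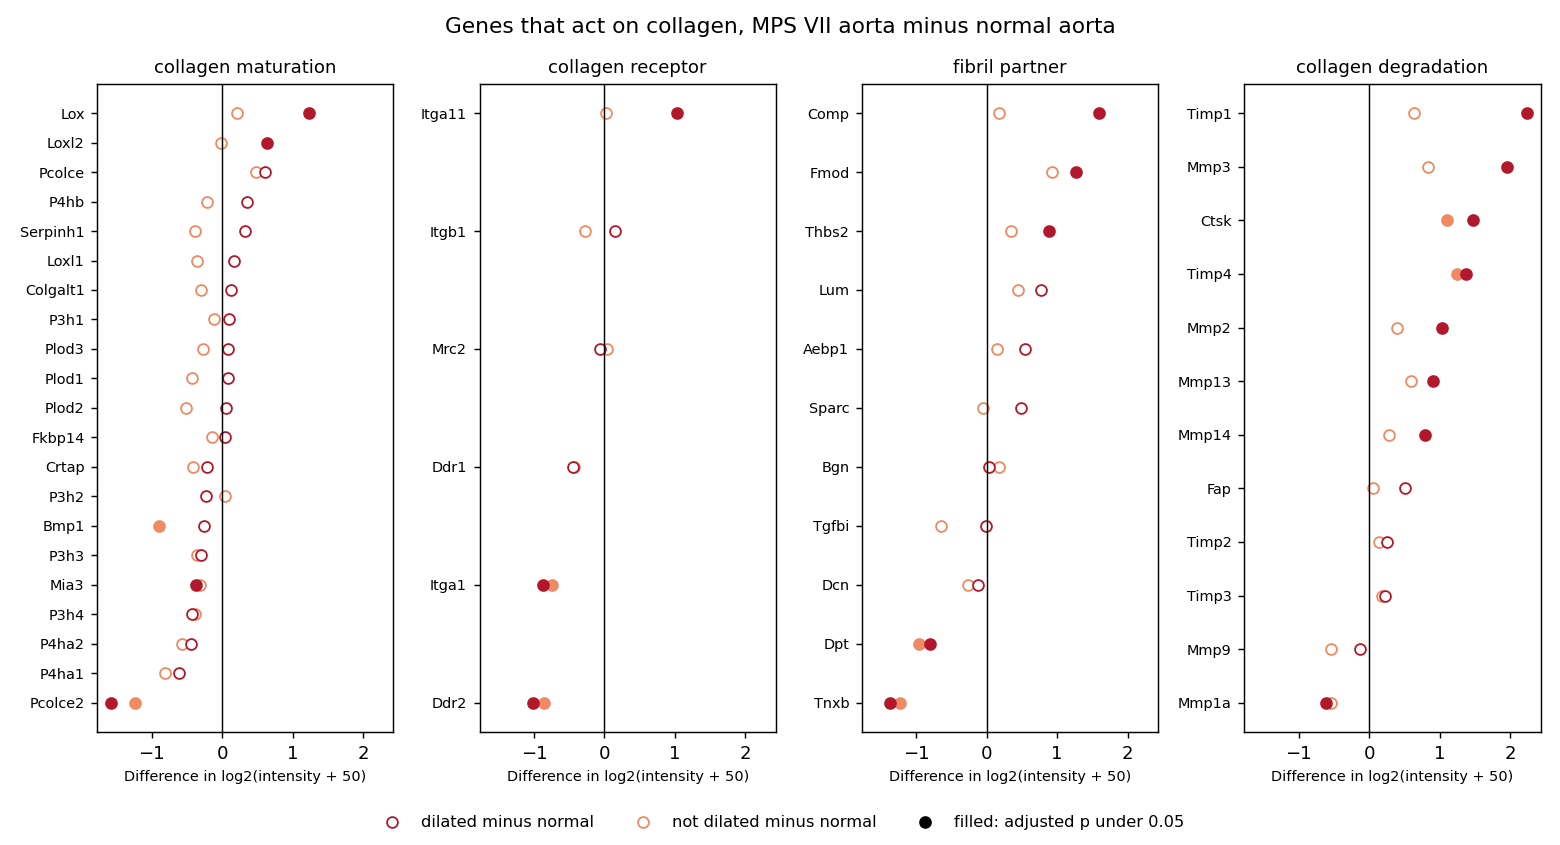
Log2 difference of the 50 measured genes of the maturation, receptor, fibril partner and degradation lists, for MPS VII dilated minus normal (dark red) and MPS VII not dilated minus normal (orange), sorted within each list. Filled points passed the adjusted p of 0.05 in limma. The degradation list has 7 filled dark red points above 0, and Pcolce2 and Tnxb lie lowest in their lists in both comparisons.

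Markers of cell types in and around the wall moved with the groups, and their part in the collagen values was not tested. Over all genes tested, 9.82% were called higher and 10.4% lower in dilated minus normal. In not dilated minus normal the shares were 4.84% and 5.17%, and the counts of each list stand against these. The 9 adventitial fibroblast markers, from cells that make fibrillar collagen, summed to 29817 to 36788 intensity units in dilated aorta and 25093 to 32276 in not dilated aorta, against 38055 to 38939 in normal aorta. Of these 9 genes 4 were called lower in each comparison with normal and 0 higher, and 3 of the list (Dpt, Lum and Dcn) also stand among the fibril partners. Dcn was the largest part of each sum, at 16467 to 23181 intensity units. Lum went the other way and was higher on each MPS VII array than on each normal one. Dpep1 had 880, 535 and 647 intensity units in the dilated aortas and 748 and 736 in the not dilated ones, against 468, 858 and 329 in the normal aortas. Cd34 had 275, 246 and 203 in the dilated aortas and 97.5 and 194 in the not dilated ones, against 212, 223 and 201. Both thus overlapped between dilated and normal aorta. The 9 contractile smooth muscle markers, from cells that make type IV collagen, summed to 47180 to 83876 in dilated aorta and 66961 to 88367 in not dilated aorta, against 92629 to 117124 in normal aorta, with 8 and 2 called lower. The 8 macrophage markers summed to 11791 to 18508 in dilated aorta and 5013 to 8454 in not dilated aorta, against 1436 to 2907 in normal aorta, with 8 and 5 called higher.

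The 9 white adipocyte markers on the array summed to 35832 to 51668 in dilated aorta and 32955 to 54342 in not dilated aorta. In normal aorta they summed to 8909 to 20609. Of the 7 measured ones 5 and 3 were called higher, against 9.82% and 4.84% of all genes. Fabp4 and Retn of that list were below background on every array. Lpl was the largest part of each sum, at 20268 to 30854 intensity units in MPS VII aorta and 6246 to 14120 in normal aorta. Lep did not rise with the list. It had 99.8, 121 and 605 intensity units in the dilated aortas and 251 and 113 in the not dilated ones, against 442, 286 and 224 in the normal aortas. With the mean log2 value of the 7 measured genes as a covariate, 0 collagen genes were called in any comparison. Calls over all genes fell with it from 2032 to 137 in dilated minus normal and from 1005 to 2 in not dilated minus normal. In MPS VII minus normal they fell from 2446 to 61, so the loss was not particular to collagens. Col1a1 then had 1.57 in dilated minus normal (limma adjusted p = 0.116) and Col4a5 -0.14 (0.879). The mean log2 value of all 9 genes did not overlap between MPS VII and normal arrays (9.47 to 10.28 against 8.21 to 9.03). The covariate left out Fabp4 and Retn of these 9, and it and the disease largely cannot be told apart. The 9 endothelial markers summed to 4811 to 10500.4 in dilated aorta and 5702 to 6817 in not dilated aorta, against 3377 to 4838 in normal aorta, with 4 and 3 called higher. Of 5 measured cardiomyocyte markers 0 were called, and the cartilage markers Hapln1, Matn1, Matn3 and Cnmd were below background on every array. Of the 3 measured cartilage markers, 1 was called higher in dilated aorta, Comp, and 1 lower.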

How the data were processed

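Ascending aortas of 8 separate mice were profiled on Illumina arrays, 1 array for each mouse. The deposited values are intensities on a linear scale, made by the authors with GenomeStudio and Partek, which are named with no role and no version per the submitters' processing notes. On each array 27.8% to 28.0% of the values lie below 0, as after background subtraction, and the arrays share 1 distribution (sorted values differ by at most 0.94 units). The table of signals before normalization stayed out, since 16 of its columns match no single sample.

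The noise SD of the values below 0 was 11.0, and the one-sided 0.01 bound of that noise, 25.6, was the background bound. Probes above it on at least 2 arrays were kept, 12913 of 25697, with the brightest probe for each gene, which gave 10040 genes and unnamed probes. The platform annotation gave 23141 probes 1 symbol each, 0 probes several and 2556 probes none, and 0 symbols needed updating through the gene table. From the deposited intensities log2(value + 50) was computed, which understates the change of dim genes, and fitted by lmFit and eBayes of limma 3.58.1 (R 4.3.3), with 1 mean for each group, 5 residual and 4.05 prior degrees of freedom. Contrasts were two-sided with Benjamini-Hochberg adjustment over all 10040. The script was tested on simulated data. For single genes the p-values are those of limma's model, because an exact permutation test of 3 arrays against 3 gives 0.1 at best. The number of arrays limits the precision.

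The members and lists were chosen with earlier results of these data known. Named with per-array values were the genes called in any contrast and the major chains of the vessel wall. Of each list of genes acting on collagen, up to 5 called genes with the largest absolute difference in dilated minus normal were named, and Bmp1 was added after its values were seen. Of the wall chains, Col6a3 and Col8a1 were not analysed here. Promoter windows are from RefSeq, GRCm38.p6, for 30 of 37 members. Alternatives were the offset, filter, normalization, probe choice, replicate number, array weights, age, sex and adipocyte markers as covariates, the groups in the fit, and leaving out each array. Deviations of same-numbered arrays correlated at 0.33 and 0.30 between not dilated and normal arrays but at -0.19 to 0.04 in the other 5 pairs of arrays, so the replicate numbers were not taken as a pairing.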

Additional observations from a re-analysis of the deposited data

Results flagged for a closer look

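Col4a6, a type IV chain, stood out because on its brightest probe all dilated aortas lay below the normal mean and no not dilated aorta did. On the log2 scale the dilated aortas lay -0.24, -0.34 and -0.93 from the normal mean and the not dilated ones 0.07 and 0.01 from it, while the normal aortas themselves lay -0.21 to 0.20 from it. The not dilated difference of 0.04 is therefore within the normal spread, and it changed sign under 4 of 19 alternatives. The further probes, above background on 5 and 6 arrays, had 0.02 and -0.17 there. Dilated minus not dilated was -0.54 (SE 0.21), which limma did not call (adjusted p = 0.508). Among the 8 arrays dilated replicate 3 was lowest, and it was also lowest for Col4a4, Col4a5, Col15a1 and Col18a1.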

How the results depend on the processing

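Of 1421 recomputed collagen differences 1340 kept their side of the threshold, 46 lost a call, 34 gained one and 1 reversed, and 74 changed sign with no call on either side. The reversal was Col4a1 in MPS VII minus normal, at 0.10 with the adipocyte marker mean as a covariate (limma adjusted p = 0.848). The number of collagen calls in dilated minus normal was 2, and became 1 with values below 16 set to 16, 5 with the replicate block, 6 with array quality weights and 0 with the adipocyte covariate. In not dilated minus normal it was 1, and became 0 with values below 16 set to 16 or the adipocyte covariate, and 2 with array weights or only the groups compared in the fit. In MPS VII minus normal it was 4, and became 1 with values below 16 set to 16 or cyclic loess, 2 with no filter, 7 with array weights and 0 with the adipocyte covariate. Dilated minus not dilated gave 0 collagen calls under all alternatives. Over all genes the calls in dilated minus normal were 2032, and 1801, 1939, 3324 and 137 in the same settings. In not dilated minus normal they were 1005, and 754 with the floor of 16 and 2 with the covariate. They became 1481 with array weights and 1119 with only the groups compared. In MPS VII minus normal they were 2446, and 2115 with the floor and 2214 with cyclic loess. They became 2149 with no filter, 3444 with array weights and 61 with the covariate. The genes acting on collagen gave 20 calls in dilated minus normal and 8 in not dilated minus normal, and 2 and 0 with the adipocyte covariate. The replicate block moved 1 of these counts by over 1.5 times, the one in dilated minus normal, and the numbers mark no pairing. The cause of these shifts was not tested.

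Leaving out 1 array gave 1 to 5 collagen calls in dilated minus normal. It gave 1 without normal replicate 1 or 3 and 5 without dilated replicate 1, where 1089, 1166 and 1842 of all genes were called. It gave 0 to 3 in not dilated minus normal, with 0 without dilated replicate 2, not dilated replicate 1 or any normal array, 2 without dilated replicate 3 and 3 without not dilated replicate 2. In MPS VII minus normal it gave 0 to 5, with 2 without dilated replicate 2, 1 without not dilated replicate 1, normal replicate 2 or normal replicate 3, and 0 without normal replicate 1. The genes acting on collagen gave 12 to 20 calls in dilated minus normal, the lowest without normal replicate 1 (12) and normal replicate 3 (13). In not dilated minus normal they gave 0 to 12, with 0 without not dilated replicate 1, 3 without normal replicate 3, 5 without not dilated replicate 2 or normal replicate 1, and 12 without dilated replicate 3. Calls over all genes moved in these fits too. In not dilated minus normal they were 656 without dilated replicate 2 and 1538 without dilated replicate 3, against 1005 with all arrays. Without normal replicate 1, 2 or 3 they were 300, 547 and 195. In MPS VII minus normal they were 1911 without dilated replicate 2, and 1311, 1675 and 1176 without normal replicate 1, 2 or 3, against 2446. A fit without a not dilated array leaves 1 array in that group. The pair differences ran from 1.40 to 1.63 for type I, from -0.92 to -0.72 for type IV and from -0.01 to 0.13 for type VI. With values below 16 set to 16, dim genes moved: Col4a6 in dilated minus normal became -0.75, Col27a1 -0.58 and Col4a3 0.46, with 0 of these called.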
